A study of Mus musculus with 6 samples.

Results

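Broad lone regions are stretches of the mouse genome of 400 bases or more that were enriched by an m6A antibody in each of 3 brain RNA libraries and had no other such region within 1000 bases. They were found by joining peaks of the 3 deposited peak lists that shared 1 base or more, and keeping autosomal regions with a peak of each list. There were 856 of them among 10330 lone regions, 16348 autosomal regions with a peak of each list, and 43377 joined regions of any list. The 9474 lone regions under 400 bases served for comparison. Length, isolation and presence in all 3 lists chose the members, so every value taken from the same 3 lists is a description without a test.

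The samples were whole mouse brains, with 3 libraries enriched by an m6A antibody (m6A IP 1, 2 and 3) and 3 input libraries made without antibody, all of polyadenylated RNA. The series concerns m6A in oligodendrocyte maturation and myelination, but the labels give no genotype, strain, age, sex or treatment for these brains, and there was 1 group of each kind of library. Each list was called from 1 IP and 1 input, which held 16764956 to 18489297 IP tags and 21529770 to 36372297 input tags. After duplicates were removed, 5676427 to 6493926 IP tags and 7185922 to 11589632 input tags were left. The labels do not tell whether the replicates are different animals, so an SD over lists may be technical. The lists carry mm9 positions without strand or gene name, and the genes, exons and sequence at these regions are not given here. For the same reason, the labelled tissue was not checked against marker genes.

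N6-methyladenosine (m6A) is an internal mark of messenger RNA, placed largely by a complex of METTL3 and METTL14 and bound by reader proteins of the YTH family. It is known to be common near stop codons, in 3′ untranslated regions and in long internal exons, and to act on splicing, export, translation and decay. In m6A-seq, RNA fragments are pulled down with an antibody, and the tags pile up over and around the modified adenosines, so that the width of an enriched stretch depends on fragment size as well as on the positions of the mark. A peak's summit is the base with the highest tag pileup. In RNA of a whole brain, a transcript at a high level in few cells cannot be told apart from one at a lower level in many.

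Most members were only somewhat longer than the limit. Their median length was 485 bases, with quartiles of 438 and 582 and a longest region of 1707 bases. There were 460 members under 500 bases, 299 of 500 to under 700, 83 of 700 to under 1000 and 14 of 1000 or more. Together they covered 457 kb of the genome, against 1684 kb for the lone regions under 400 bases, whose median length was 160 bases. The nearest other region with a peak of each list was a median of 18340 bases away, and for 115 members it was over 100 kb away. Joined regions without a peak of each list could still lie near a member. No joined region of any list lay within 1000 bases in 535 members (62.5%), against 68.7% of the lone regions under 400 bases.

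Every autosome held members. They made up 8.29% of all lone regions (Wilson 95% interval 7.77 to 8.83). The share was lowest on chromosome 6 at 6.77% (36 of 532, interval 4.93 to 9.23) and highest on chromosome 18 at 10.8% (34 of 316, interval 7.80 to 14.7). The intervals of these 2 chromosomes overlap, and no test between chromosomes was run. Intervals cover counting error only.

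A member was most often 1 unbroken peak in m6A IP 1 and 2, and was more often broken up in m6A IP 3. A single peak was called in 648, 628 and 472 members in m6A IP 1, 2 and 3. At least 2 peaks were called in 208 members in m6A IP 1, which is 24.3% (interval 21.5 to 27.3) against 4.3% of all lone regions. In m6A IP 2 the number was 228, or 26.6% (23.8 to 29.7) against 4.4%, and in m6A IP 3 it was 384, or 44.9% (41.6 to 48.2) against 6.93%. A longer region has room for more peaks, so nothing is read from these differences. Over the lists the share was 31.9% ± 11.3 (SD, n = 3). It was 20.6% ± 7.002 when only peaks of fold 4 or more were used. With only peaks whose −log10 q was 10 or more, 392 broad lone regions could be built and the share was 5.70% ± 1.15. Members with 3 or more peaks numbered 22, 19 and 59, and none had more than 4 in any list.

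Few members reached their length in every list by a single peak. A single peak of 400 bases or more was found in 526 members for m6A IP 1, 518 for IP 2 and 223 for IP 3. In 156 members (18.2%) all 3 lists had such a peak, in 235 (27.5%) 2 lists did, and in 329 (38.4%) 1 list did. The remaining 136 members (15.9%) reached 400 bases only by joining shorter peaks. Peaks of m6A IP 1 and 2 covered a median of 92.6% and 91.5% of a member's bases, and those of m6A IP 3 covered 70.8%. In lone regions under 400 bases the medians were 89.8%, 89.6% and 73.6%, so a lower coverage in m6A IP 3 was not particular to members. The covered length was lowest in m6A IP 3 in 632 members (73.8%), and so was the pileup in 502 (58.6%). Neither count was made in the shorter regions. The list of m6A IP 3 was also the shortest of the 3, with 24686 peaks against 32858 and 32671.

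**Figure D1:**
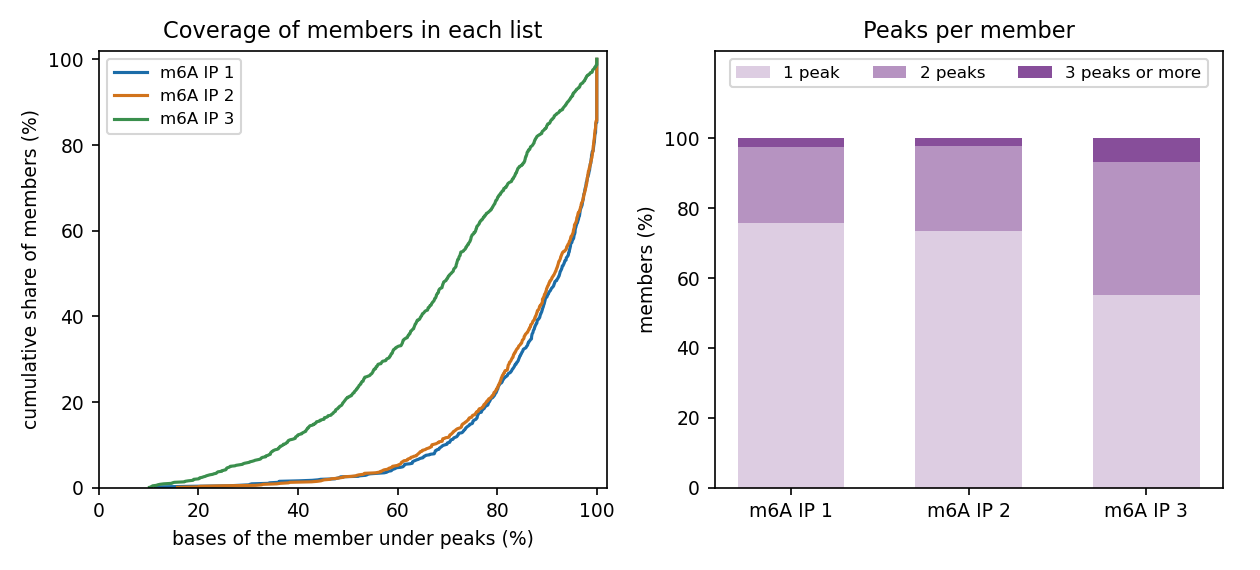
Left, cumulative share of the 856 members (percent) by the percent of their bases under peaks, 1 line for each list. Right, stacked bars of members with 1, 2 or at least 3 peaks in each list. The line of m6A IP 3 lies to the left of the others, and 44.9% of members had 2 or more peaks there against 24.3% and 26.6%.

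Where a list broke a member into several peaks, another list usually ran across the break. There were 232, 247 and 447 gaps between neighbouring peaks of 1 list in m6A IP 1, 2 and 3, and their median widths were 64.5, 62 and 75 bases. A single peak of another list spanned 228 of the gaps in m6A IP 1, 98.3% (interval 95.6 to 99.3). It spanned 239 in m6A IP 2, 96.8% (93.7 to 98.3), and 438 in m6A IP 3, 98.0% (96.2 to 98.9). A gap inside a region must be bridged by other lists, by 1 peak or by several, since that is how regions were joined. The summits on the sides of a gap lay a median of 248.5, 255 and 249 bases apart, 251 ± 3.62 (SD, n = 3). The second highest peak of such a member had a median pileup of 79.0%, 75% and 82.6% of the highest.

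The share of members with several peaks was larger in longer members. Over the lists it averaged 26.3% ± 7.48 (SD, n = 3) for members under 500 bases, 35.5% ± 13.6 for 500 to under 700 and 47.8% ± 22.9 for 700 or more. In the last class the shares were 28.9%, 41.2% and 73.2% in m6A IP 1, 2 and 3, so that m6A IP 3 stood apart. Members broken up in no list numbered 314 (36.7%), those broken up in 1 list 299 (34.9%), in 2 lists 208 (24.3%) and in all 3 lists 35 (4.09%). Of the 299, 169 were broken up in m6A IP 3, and 65 in each of the other lists. Of all lone regions, 4.3%, 4.4% and 6.93% had 2 or more peaks in m6A IP 1, 2 and 3. A longer region has room for more peaks, and a gap in 1 list must be bridged by other lists. Both limit what these counts can show, and nothing is read from them.

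The 10 longest members show these forms side by side. The longest, chr7:106416106-106417812 (1707 bases, mm9), was 1 peak of 1702 bases in m6A IP 2 but 2 peaks in IP 1 and 3 peaks in IP 3. Its pileups were 45, 48 and 43 tags and the folds of its strongest peaks 2.97, 2.84 and 2.92, over a mean input background of 14.9 tags. The fold, taken as the authors deposited it, divides the IP pileup at the summit plus 1 by the caller's local background plus 1. The next, chr2:143813930-143815437 (1508 bases), was a single peak in every list, of 1468, 1349 and 1329 bases. Its pileup was 59, 56 and 48 tags, but its folds of 14.4, 5.72 and 10.8 were far apart. The third, chr4:132619259-132620522 (1264 bases), was the opposite case: 3 peaks in m6A IP 1, 1 peak of 1256 bases in IP 2 and 4 peaks in IP 3, at nearly equal pileups of 37, 35 and 36 tags and folds of 5.99, 6.40 and 5.89.

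The other long members are given by their pileups and folds. On chr5:97516044-97517187 (1144 bases) the strongest summits lay 181, 161 and 178 bases from the start, at pileups of 34, 33 and 28 tags. On chr6:83318059-83319187 (1129 bases) the pileups were 36, 39 and 31 tags, with folds of 9.13, 8.13 and 7.76. On chr7:147061198-147062322 (1125 bases) they were 37, 37 and 38 tags, but the folds were 5.92, 3.11 and 5.69, the middle list standing over an input background of 11.2 tags against 5.42 and 5.86. A similar spread was seen on chr10:74453744-74454854 (1111 bases), with pileups of 39, 37 and 40 tags and folds of 6.31, 4.30 and 4.59. The remaining 3 were chr7:25987828-25988929 (1102 bases, pileups of 38, 42 and 38 tags), chr2:139502816-139503879 (1064 bases, 35, 33 and 33 tags) and chr7:29251956-29252999 (1044 bases, 38, 36 and 29 tags). In all 10, the lowest pileup in any list was 28 tags, above the median of 21 to 23 tags of lone regions under 400 bases.

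**Figure D2:**
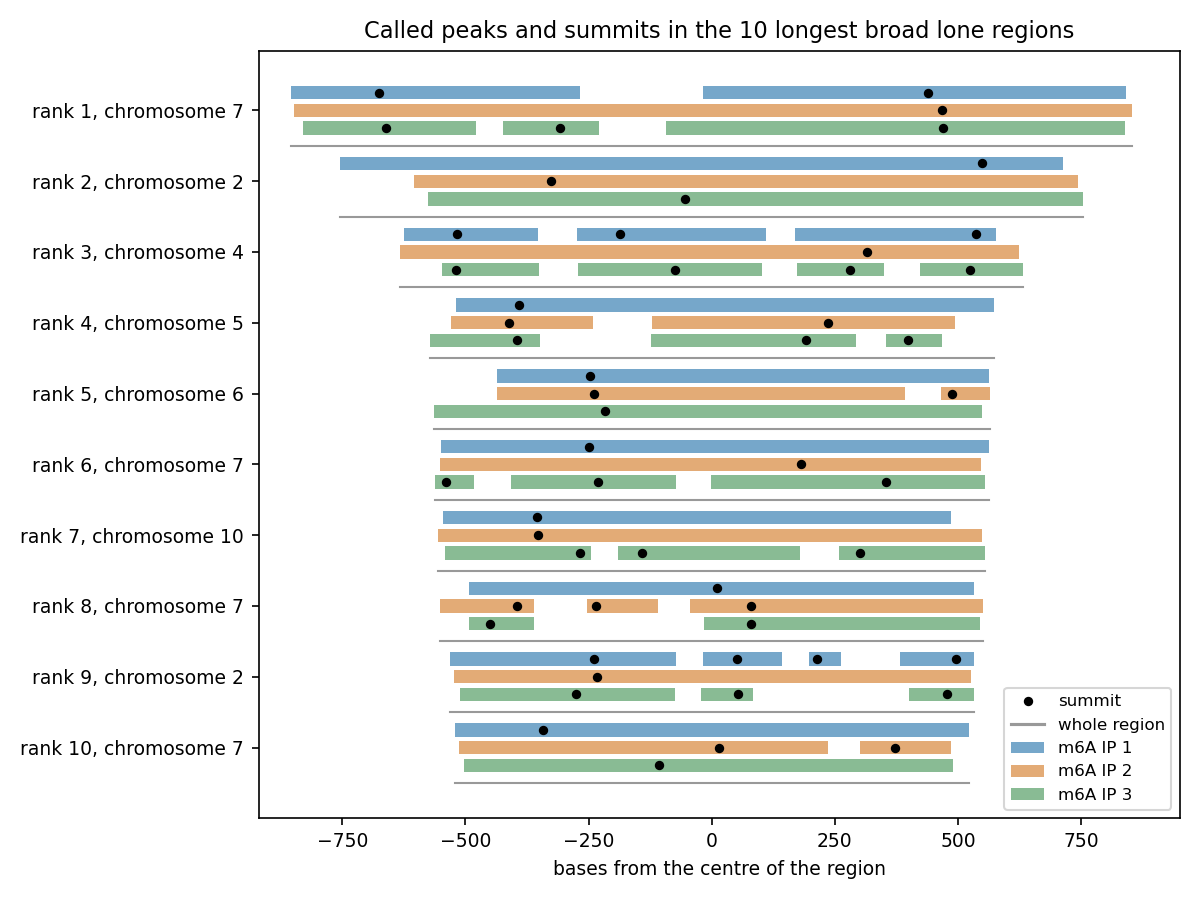
Peaks (bars, coloured by list) and their summits (black points) in the 10 longest members, by distance in bases from the centre of the region, with the whole region as a grey line. The same member is 1 peak in some lists and up to 4 in others: rank 3 has 3, 1 and 4 peaks in m6A IP 1, 2 and 3.

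The member with most peaks was chr8:89248931-89249678 (748 bases), with 4, 2 and 3 peaks. Its strongest summits lay at bases 388, 389 and 389 of the region, with pileups of 33, 34 and 26 tags and folds of 3.94, 3.96 and 2.33. No list held a peak of 400 bases there. The next with 8 peaks each were the members on chromosomes 4 and 2 named above, chr17:32470437-32471466 (1030 bases) and chr12:112031547-112032546 (1000 bases). On chromosome 17 the lists had 2, 2 and 4 peaks and yet their strongest summits lay at bases 709, 711 and 709. On chromosome 12 they had 1, 3 and 4 peaks, with strongest summits at bases 616, 179 and 907 and pileups of 30, 28 and 23 tags. These places rest on ties: in m6A IP 2 peaks at bases 179 and 808 both had 28 tags, and in m6A IP 3 peaks at bases 605, 750 and 907 all had 23. Of peaks with equal pileup in a list, the one with the higher fold was taken as the strongest.

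The strongest summits of members lay closer to the ends, in relative terms, than those of shorter regions. Its distance from the centre was measured on a scale from 0% at the centre to 100% at either end. The median was 37.3% in m6A IP 1, 39.2% in IP 2 and 40.1% in IP 3, with a mean of 38.9% ± 1.44 (SD, n = 3). In lone regions under 400 bases it was 32.7%, 32.4% and 33.8%, 32.9% ± 0.736. An even spread along the region would give a median of 50%. The middle 20% of the length held 25.4% ± 1.32 of the members' strongest summits and the outermost 20% at each end, which together make up 40% of the length, held 24.8% ± 1.18. In the shorter regions these shares were 31.5% ± 0.616 and 17.9% ± 0.836, and an even spread would give 20% and 40%. In bases, the summit lay a median of 154 ± 1 (SD, n = 3) from the nearest end in members and 46 in the shorter regions. Tags were extended to 50 bases, which is a larger part of a short region, and what this does to the summit's place was not tested. By coordinate there was no preferred side: the lower-coordinate side of the centre held 51.3%, 49.4% and 53.0% of the members' strongest summits. Without strand, the sides could not be read as 5′ and 3′.

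**Figure D3:**
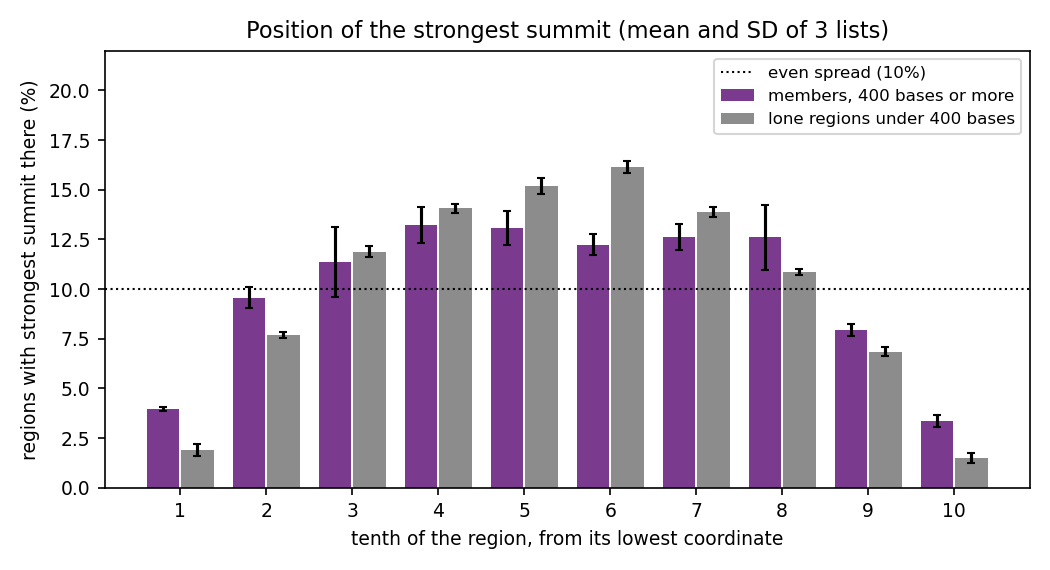
Share of regions (percent) whose strongest summit lies in each 10% of the region, counted from the lowest coordinate, for the 856 members and the 9474 lone regions under 400 bases. Bars are means and error bars SDs of the 3 lists, and the dotted line is an even spread. Members fall on a flatter profile, with 13.1% ± 0.842 between 40% and 50% of the length against 15.2% ± 0.396.

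The lists placed the strongest summit at the same spot in about as many members as not. The 3 strongest summits lay within 50 bases of each other in 420 members, 49.1% (interval 45.7 to 52.4), against 73% of all lone regions and 75.2% (74.3 to 76.0) of those under 400 bases. A short region leaves less room for distance, and nothing is read from this difference. As a percent of region length, the median spread of the summits was 9.54% in members and 13.0% in the shorter regions, in the reverse order. The median spread was 55.5 bases in members, with quartiles of 12 and 170. A tie for the highest pileup in some list occurred in 40 members, 20 of them with summits over 200 bases apart. In the 816 members without a tie, a comparison added after seeing the data, the summits lay within 50 bases in 50.2% (interval 46.8 to 53.7). In 198 members (23.1%) the summits agreed within 10 bases, and in 167 (19.5%) they lay over 200 bases apart. The share was much the same in members with and without a break: the summits lay within 50 bases in 48.1% of the 314 members with 1 peak in each list and in 49.6% of the others.

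Summits that agreed closely occurred in very long members too. Of those within 10 bases, the longest was the chromosome 17 member above. On chr14:68741903-68742920 (1018 bases) the summits lay at bases 831, 831 and 832, with pileups of 65, 69 and 55 tags and folds of 4.06, 4.85 and 4.84. On chr19:46728810-46729786 (977 bases) they lay at bases 730, 724 and 724, with 42, 40 and 39 tags. On chr19:4889147-4890044 (898 bases) they lay at bases 319, 328 and 319, with 37, 34 and 34 tags. On chr14:120268227-120269069 (843 bases) they lay at bases 479, 475 and 475, with 34, 37 and 30 tags. In these 5 members, the mean folds were between 4.07 and 4.95.

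At the other end stood members whose strongest summits lay far apart between lists. In the longest member the strongest summits lay at bases 1293 and 1322 in m6A IP 1 and 2 and at base 192 in m6A IP 3. In m6A IP 3, however, peaks at bases 192 and 1323 both reached 43 tags, so that the choice between them rested on a tie. On chromosome 2, the 1508-base member had summits at bases 1303, 429 and 700, with pileups of 59, 56 and 48 tags. Each list gave it 1 summit, so the height at the summits of the other lists is not known. On chr13:60862148-60863092 (945 bases) the summits lay at bases 790, 121 and 792, with pileups of 38, 41 and 37 tags. On chr15:80225467-80226180 (714 bases) they lay at bases 700, 547 and 134, with 21, 26 and 23 tags. Apart from the chromosome 2 member, the pileups of each member named here differed by a few tags between lists. A Poisson count of 32, the median of m6A IP 1, would have an exact 95% interval of 21.9 to 45.2. Pileups come from overlapping tags kept once for each position and strand, so this interval does not measure the spread between lists.

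When the summits of all peaks of a member were grouped, joining neighbours at most 50 bases apart, the 856 members held 1966 groups. All 3 lists had a summit in 505 of them, 2 lists in 518 and 1 list in 943. A member had 1 group in 162 cases, 2 in 379 and 3 or more in 315 (36.8%), whereas 76.0% of the lone regions under 400 bases had 1 group. Only 5 members held 2 groups shared by all 3 lists, 251 to 381 bases apart, and 356 (41.6%, interval 38.3 to 44.9) held none. Of the lone regions under 400 bases, 1815 (19.2%) held no group shared by all 3 lists, and none held 2. A longer region has more room for separate summits, so nothing is read from these differences. The caller gave 1 summit for each peak, so a second maximum inside an unbroken peak is not listed, and the number of shared positions is a lower count of what the tags may hold.

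Members stood higher than shorter lone regions in both IP pileup and input, and hardly differed in their ratio. The strongest peak of a member reached a median of 32 tags in m6A IP 1, 33 in IP 2 and 30 in IP 3, whereas that of a shorter region reached 23, 23 and 21. The ratio of the medians was 1.42 ± 0.0235 (SD, n = 3) and their difference 9.33 ± 0.577 tags. The strongest peak is the highest of more bases in a longer region, and the part this plays was not tested. Only 1 tag was kept for each position and strand, which limits high pileups. What this does to the fold was not tested either. The median input background under it was 4.77, 5.60 and 5.28 tags, against 3.05, 3.36 and 3.52, a ratio of 1.58 ± 0.0842. The median fold was 5.44, 5.03 and 4.74 in members and 5.21, 5.13 and 4.71 in the shorter regions, a difference of 0.0574 ± 0.167 that was smaller than the spread between lists. Its sign was not the same in every list, and with only peaks whose −log10 q was 10 or more the difference was -1.22 ± 0.116, with the lower fold in broad regions. Without m6A IP 1 it was -0.0319, and without m6A IP 3 it was 0.252.

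The pileup difference was also present at a like input level. The strongest peaks were sorted into 6 classes of input background in each list, and the median pileup and the median fold were higher in members in 18 of 18 classes. Input background was computed from pileup and fold, so within a class both medians express 1 difference, and the lists cover the same regions. The calls that gave the pileup also gave the length that chose the members. The 18 classes are therefore a description and no separate support. At a background of 2 to under 4 tags, the median fold was 7.32, 6.88 and 6.36 in members, against 5.77, 5.73 and 5.19 in shorter regions. At 8 to under 16 tags it was 3.51, 3.52 and 3.20 against 3.10, 3.11 and 2.77. At 16 tags or more the values came close, 2.47, 2.54 and 2.14 against 2.30, 2.36 and 2.12. Conversely, the share of lone regions that were broad rose with pileup, from 2.28%, 2.12% and 2.89% under 20 tags to 21.2%, 20.9% and 22.4% at 40 tags or more. This too is a description, for the same reason.

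**Figure D4:**
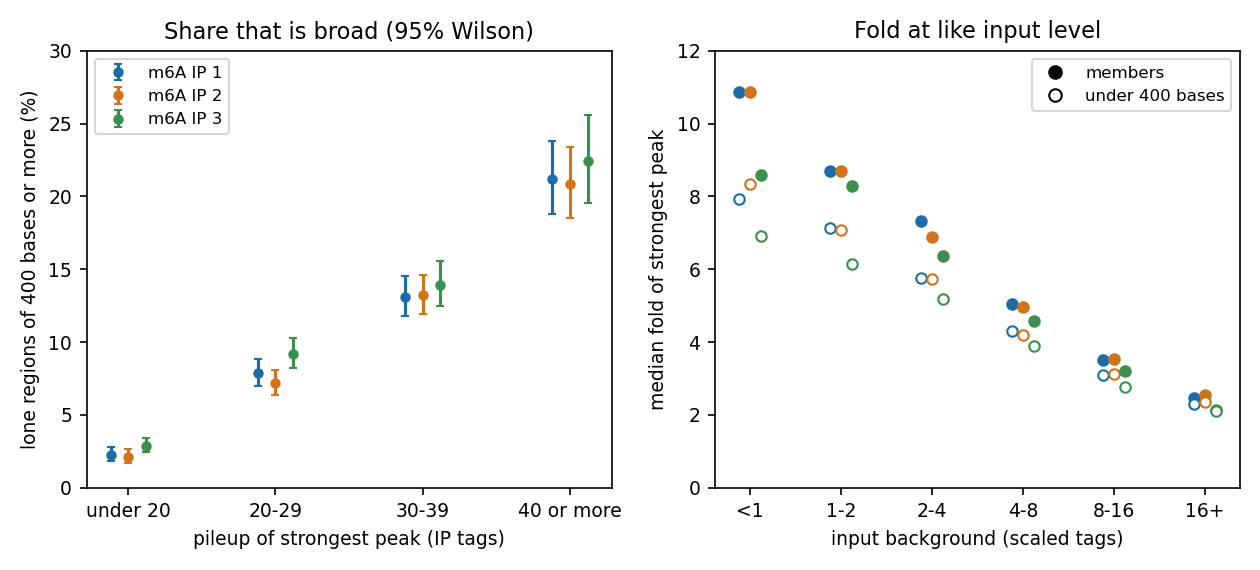
Left, share of lone regions of 400 bases or more (percent, with Wilson 95% intervals) by the pileup of the strongest peak in each list. Right, median fold of the strongest peak by its input background, for members (filled) and lone regions under 400 bases (open). The share goes from under 3% below 20 tags to over 20% at 40 tags or more, and each filled point lies above the open point of its list.

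Among the members themselves, pileup was weakly related to length and fold hardly at all. Spearman's rho of length with pileup was 0.190, 0.224 and 0.204 across the 856 members, and with fold 0.0178, 0.0472 and 0.0645. Members share their libraries and are not replicates, so no p is given. For members of 700 bases or more the median pileup was 37, 38 and 35 tags and the median fold 5.20, 5.09 and 5.02. For members under 500 bases these were 31, 31 and 28 tags and 5.41, 4.88 and 4.58.

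The 5 members with the highest pileup lay over more input than the median member. By the lowest pileup over the 3 lists, chr4:149021497-149021991 (495 bases) came first, with 70, 75 and 71 tags and folds of 3.54, 6.01 and 4.15. It was long only in m6A IP 2, where 1 peak ran over all 495 bases, against peaks of 178 and 180 bases in m6A IP 1 and 3. On chr14:68738209-68739217 (1009 bases) the pileups were 70, 65 and 64 tags and the folds 2.31, 2.46 and 2.23, over an input background of 27.9 tags. On chr7:52631902-52632630 (729 bases) they were 75, 76 and 64 tags with folds of 3.08, 2.82 and 1.75, and each list had a single peak of 671 to 725 bases. On chr6:58856413-58857028 (616 bases) the pileups of 67, 64 and 61 tags came with folds of 4.87, 2.65 and 1.67. The last of the 5, chr3:30717476-30717937 (462 bases), had 65, 64 and 60 tags and folds of 3.29, 4.03 and 2.46. One tag was kept for each position and strand, so that 50 tags of 50 bases is the most that 1 strand can hold. Pileups above 50 were found in 23, 24 and 17 members, 2.69%, 2.80% and 1.99%, against 31, 39 and 18 of the shorter regions, 0.327%, 0.412% and 0.190%.

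The 3 members with the highest mean folds lay over little input, with pileups of 26 to 38 tags. On chr12:79326779-79327500 (722 bases) the folds were 25.2, 16.03 and 21.5. The pileups there were 33, 33 and 30 tags, over an input background of 0.347, 1.12 and 0.440 tags. On chr19:45857434-45857968 (535 bases) the folds were 17.6, 20.6 and 14.7, and the 3 summits lay at the same base, 416 of the region. On chr16:42340595-42341072 (478 bases) the folds were 18.2, 10.4 and 20.2, with summits at bases 41, 41 and 42. The lowest mean folds were 2.11 ± 0.404 (SD, n = 3) on chr1:137063638-137064067, 2.11 ± 0.267 on chr2:131762178-131762654 and 2.19 ± 0.341 on chr14:70866664-70867078. Their mean input backgrounds were 22.9, 22.5 and 20.2 tags, and their pileups in any list were between 41 and 49 tags.

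Lists ordered the members alike in height and less so in outline or fold. Spearman's rho across the 856 members averaged 0.939 over the 3 pairs of lists for pileup, 0.856 for input background, 0.642 for fold and 0.601 for the covered length. In lone regions under 400 bases the corresponding values were 0.940, 0.879, 0.618 and 0.677. The median coefficient of variation over the lists was 7.55% for the pileup of a member and 21.2% for its fold, against 10.7% and 21.8% in the shorter regions.

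Regions just inside and just outside the length limit are given side by side, as a description. The 54 members under 410 bases had median pileups of 29.5, 29.5 and 26 tags, and several peaks in 24.1%, 16.7% and 37.0% of cases. Their median folds were 5.75, 5.48 and 4.47. The 70 lone regions of 390 to under 400 bases had median pileups of 32, 31 and 29 tags, median folds of 4.96, 5.04 and 4.60, and several peaks in 15.7%, 22.9% and 25.7% of cases. The 3 shortest members, at 400 bases each, were chr6:85164252-85164651, chr13:46847463-46847862 and chr13:66109121-66109520, with mean pileups of 44.7, 28 and 30.3 tags. The 3 longest lone regions under 400 bases, chr1:52846496-52846894, chr2:166926483-166926881 and chr5:125365428-125365826, had mean pileups of 30, 31.7 and 32 tags.

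Broad regions were also looked up in a list that had no part in the choice. Lone regions of 400 bases or more were chosen from 2 lists alone and then looked up in the other list, each list being held out in turn. A peak of the held-out list was found in 586 of 587 such regions for m6A IP 1 (99.8%, lower Wilson 95% limit 99.04), 594 of 595 for m6A IP 2 (99.8%, lower limit 99.1) and 686 of 698 for m6A IP 3 (98.3%, lower limit 97.02). Of the lone regions under 400 bases, chosen in the same way, 89.6%, 89.6% and 67.7% were found. The difference was 17.0 ± 11.7 percentage points (SD, n = 3) and was positive in 3 of 3 lists, at 10.2, 10.2 and 30.6. A longer region is more easily touched by a peak, and the part of this was not tested. The 3 choices share lists, so no p-value is given.

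The stretch under peaks in the held-out list was longer in broad than in shorter regions, but in m6A IP 3 it was mostly under 400 bases. Its median inside the region was 439.5 bases for m6A IP 1, 430 for IP 2 and 351.5 for IP 3, whereas shorter regions had 114, 113 and 97 bases. Only bases inside the region were counted, so the length limit largely sets this difference and nothing is read from it. As a percent of region length, the median covered part averaged 83.7% in broad and 84.0% in shorter regions. That difference was -0.296 ± 2.67 percentage points (SD, n = 3). A single held-out peak of 400 bases or more was present in 61.9%, 59.3% and 26.2% of the broad regions found, against 0.889%, 0.926% and 0.107% of the shorter ones. At least 2 peaks were called in 25.6%, 27.6% and 44.8% of the broad regions found and in 2.76%, 2.69% and 3.61% of the shorter ones. In the members chosen with all lists, the share with 2 or more peaks was 24.3%, 26.6% and 44.9%. Both choices measure the same lists over regions that can be the same, so their likeness is no separate support.

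In the held-out list, pileup was higher in broad regions and the overall median fold was not separated from that of shorter regions. The median pileup was 34, 33 and 30 tags in broad regions and 23, 24 and 20 in shorter ones, a difference of 10 ± 1 tags (SD, n = 3). The median fold was 5.25, 5.09 and 4.78 against 5.21, 5.13 and 4.77, a difference of 0.00292 ± 0.0398, smaller than the spread between lists. Among regions with a mean pileup of 20 to under 30 tags in the 2 choosing lists, the held-out pileup differed by 1 ± 1 tag, but the held-out fold was 6.66, 6.19 and 5.86 in broad regions against 5.18, 4.84 and 4.62. That difference of 1.36 ± 0.120 was larger than its SD over the held-out lists, but the 3 choices share lists. The held-out input background of these regions was lower by 0.823 ± 0.297 tags. With 30 to under 40 tags the fold differed by 0.832 ± 0.0172 in the same direction. These folds cover the regions that were called in the held-out list, which were 99.5% of the broad and 88.4% of the shorter regions at 20 to under 30 tags. With m6A IP 3 held out, 75.2% of those shorter regions were found. In members chosen with all lists, the median fold at a pileup of 20 to under 30 tags was 6.69, 6.09 and 5.46. In shorter regions it was 5.20, 5.04 and 4.30. Lists ordered regions alike in pileup and input background, so the held-out fold difference is no separate support.

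**Figure D5:**
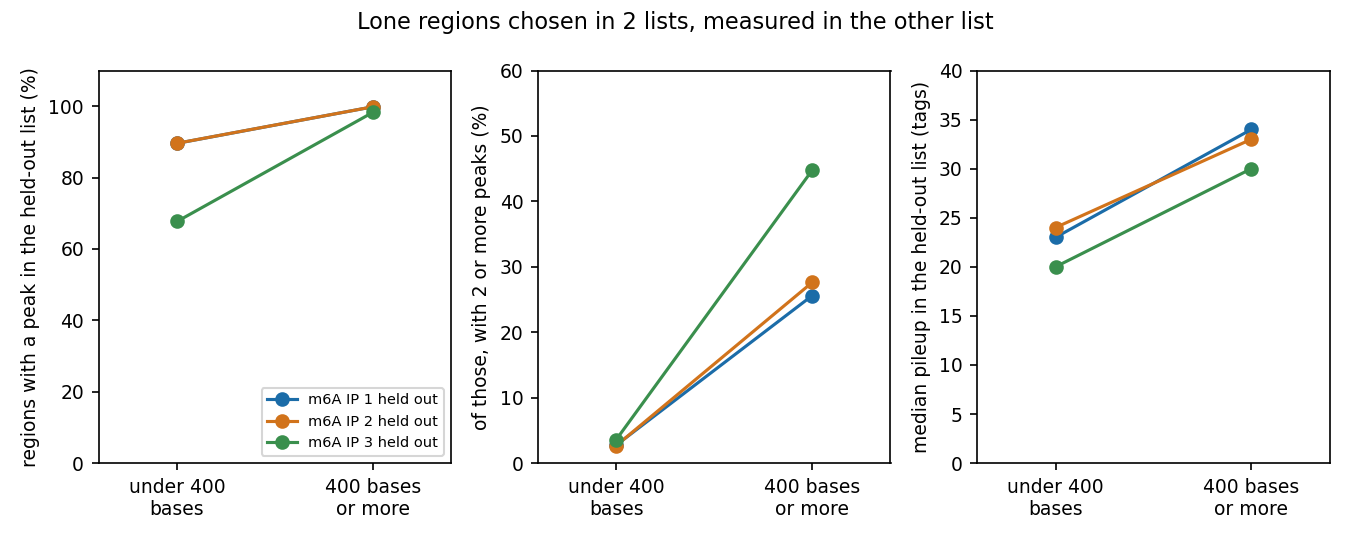
Lone regions chosen in 2 lists and measured in the list left aside, 1 line for each held-out list: regions with a peak there (percent), of those with at least 2 peaks (percent), and their median pileup (IP tags). Each line rises from regions under 400 bases to regions of 400 bases or more, the points of m6A IP 1 and 2 overlap on the left, and m6A IP 3 stands apart with 67.7% of the shorter regions found and 44.8% of the broad ones broken up.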

How the data were processed

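Polyadenylated RNA of whole mouse brain was sequenced as 3 m6A IP and 3 input libraries. Reads were processed with TopHat2 2.1.0 and MACS2 2.1.0 on mm9, per the submitters' processing notes. Per the file headers, the authors called each list with MACS 2.1.0.20151222 from 1 IP and 1 input, extending tags to 50 bases, keeping 1 tag for each position and strand, scaling the larger library to the smaller, taking local background over 1000 and 10000 bases, and keeping peaks at a q-value of 0.05. The headers carry a run name with "ctl" that no label explains. Per the file headers, the deposited pileup is a coverage signal in tags at the summit, the fold is a ratio of pileup to local background, and −log10 p-values and −log10 q-values come from the same model.

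Regions were built with Python 3.11.15, pandas 2.3.3, numpy 2.4.6 and scipy 1.17.1, and the code was tested on simulated peak lists. Peaks sharing 1 base or more were joined, and a region's strongest peak in a list is the one with the highest pileup. Input background was computed as (pileup + 1) / fold − 1 from the deposited fold. It stands for the caller's local background and is not a plain count of input tags. Shares have Wilson 95% intervals, which cover counting error only, and SDs are over 3 lists. The regions named are the 10 longest, the 5 with most peaks, the 5 highest by their lowest pileup, the 5 longest with summits within 10 bases, the 5 with summits farthest apart, the 3 shortest, the 3 longest lone regions under 400 bases, and the 3 highest and 3 lowest by mean fold. Members and measures were chosen with earlier results of these data known. The reference at hand is of another build than mm9, so genes, exons and sequences were not used here. Alternatives were other lengths, gaps, overlaps and peak thresholds, the X chromosome, and leaving out each list.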

Additional observations from a re-analysis of the deposited data

Results flagged for a closer look

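The X chromosome lay outside the autosomal regions described above. It held 26 broad lone regions among 297 lone regions, 8.75% (Wilson 95% interval 6.04 to 12.5), against 8.29% on the autosomes. These reached a median of 36 tags in m6A IP 1, 36 in IP 2 and 31 in IP 3, with median folds of 5.57, 5.05 and 4.23.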

How the results depend on the processing

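The number of broad lone regions was 1870 from 300 bases, 396 from 500 bases, 535 with any joined region counted as a neighbour and 392 with a −log10 q of at least 10, each over 1.5 times from 856. With a −log10 q of at least 10, 5.70% had 2 or more peaks, the strongest summit lay 35.3% of the way from the centre to an end, the pileup difference was 4.67 tags, the fold difference -1.22, and 58.4% had summits within 50 bases. With a fold of at least 4, these were 20.6% with 2 or more peaks, a pileup difference of 10.7 tags and a fold difference of -0.0423. The distance from the centre was 37.0% from 300 bases and 37.3% with any neighbour, where the fold difference was -0.0247. The pileup difference was 8 tags from 300 bases, 11 from 500 and 10 with a gap of 2000 bases. The cause was not tested.

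Leaving out 1 list gave 587 to 698 regions, 21.8% to 25.7% with 2 or more peaks, a distance of 37.99% to 40.7%, a pileup difference of 10.5 to 11.5 tags, and a fold difference of -0.0319 to 0.252, negative without replicate 1. Over the 2 lists kept, the SD of the share with 2 or more peaks was 20.8 without replicate 1 and 21.6 without replicate 2. Without replicate 3 it was 2.33, so the range of means hides wide differences between lists. Summits lay within 50 bases in 61.8% to 65.6%, where 2 lists were compared in place of 3. The share found in a held-out list was 98.7%, 99.6% and 99.4% under its 3 alternatives. No paired analysis was possible because all peak lists belong to 1 group and no result compares groups of samples. One summit for each peak and pileups of 30 to 33 tags limit how finely a second maximum or a summit's place can be read.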

Other observations

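Regions of 400 bases or more with a neighbour within 1000 bases were not among the members. They numbered 818 of the 6018 regions of any length with such a neighbour, or 13.6%, against 8.29% of lone regions. The chromosome 14 members of 1009 and 1018 bases lay 2685 bases apart, with pileups of 70, 65 and 64 tags in the first and 65, 69 and 55 in the second. The pair was chosen after its values were seen.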
